A study of Mus musculus with 6 samples.

Results

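Semaphorins, plexins and neuropilins are families of guidance ligands and receptors, and all 31 of their genes with a probe set of their own were followed across the study: 20 semaphorins, 9 plexins and 2 neuropilins, out of 22180 named genes on the array. They were taken by gene symbol (Sema with a digit, Plxn, Nrp1 or Nrp2). The rule uses no measured values, but earlier results of these data were known when it was chosen. The symbol rule also takes Plxna4os1, an antisense transcript at the Plxna4 locus, which is neither ligand nor receptor and was kept out of the counts. RNA from 3 cultured mouse cancer lines was hybridised to 6 arrays that each read 1 colour: LLC (Lewis lung carcinoma), AE17 (malignant mesothelioma) and MC38 (colon adenocarcinoma), each with 1 array labelled sh Spp1 (genotype label Spp1 depletion) and 1 labelled sh Ctrl (genotype label wild type). The product of Spp1 is osteopontin, a matrix protein that cells secrete and that integrins bind, and sh Spp1 is a short hairpin RNA against it. All lines grew in serum-supplemented DMEM, and the labels do not say whether the cells were clones or pools, or whether the sh Ctrl cells carried a hairpin of their own. No probe set used here names Spp1, so its depletion was not analysed here and each group is taken from its label.

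Semaphorins share a sema domain through which they bind plexins, single-pass receptors whose cytoplasmic part is a GTPase-activating domain for small G proteins of the Ras family and whose signalling lowers integrin adhesion and remodels actin. Class 3 semaphorins are secreted, and most of them need a neuropilin, a co-receptor that also binds forms of VEGF, to act on plexins of the A family. Classes 4 to 7 are held on the cell surface, by a transmembrane segment or, in Sema7a, a lipid anchor. In tumours these genes are known for effects on cell motility, vessel growth and immune cells.

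Levels are log2 intensities after quantile normalization, which gives every array the same distribution. A level can be compared between arrays for 1 gene but not between genes, because probe sets differ in brightness. Levels below 4.49, the 30th percentile of all probe sets, are called below the floor. Within a line there is 1 sh Spp1 array and 1 sh Ctrl array, so a log2 ratio within a line has no replicate and no test, and the number of arrays limits the precision of every value. In such bulk RNA fewer cells of a type and less RNA per cell cannot be told apart. The AE17 arrays stood apart from each other: across all probe sets they correlated at r = 0.939, against 0.979 for the LLC pair and 0.982 for the MC38 pair. That was less than the r of either AE17 array with any LLC or MC38 array, which was 0.942 or more. Across the 31 members, which share those arrays, the AE17 pair correlated at 0.722, the LLC pair at 0.966 and the MC38 pair at 0.959. Results that rest on AE17 are therefore given with and without it.

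Lung and colon markers were dim in their own lines. All 6 lung epithelial markers lay at or below 5.59 on the LLC sh Spp1 array and 5.48 on the LLC sh Ctrl array, and all 7 colon markers at or below 5.61 on the MC38 sh Spp1 array and 5.55 on the MC38 sh Ctrl array. Of 8 mesothelial markers, 7 were at or above the floor on the AE17 sh Spp1 array and 6 on the AE17 sh Ctrl array, led by Pdpn at 9.75 and 6.99. These counts did not set AE17 apart, with 6 on each LLC array and 7 on each MC38 array. Pdpn was at 9.63 and 9.70 on the sh Spp1 and sh Ctrl arrays of MC38. Msln was at 5.34 and 5.13 on the AE17 arrays, and at 9.96 and 9.87 on those of MC38. Of the leukocyte markers Ptprc and Adgre1 were below the floor on all 6 arrays, while Cd68 lay between 6.51 and 8.71. Of the endothelial markers Tek and Emcn were below it on all 6, while Pecam1, Cdh5, Kdr and Vwf were above it on all. The highest lung marker on any array was Sftpb at 5.86, in AE17, and 3 members, Sema3g, Sema4f and Plxnb3, stayed at or below that value on every array. Markers of tissues other than the line's own also went higher, as Krt20 did at 6.83 on the AE17 sh Ctrl array, so such levels give no fixed background.

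Most members could be measured in most lines. On all 6 arrays 26 of the 31 members were at or above the floor, and 30 passed the filter for testing, a mean over the arrays at or above it; Plxnb3 did not. Sema3d and Plxnc1 were below the floor on both LLC arrays. Sema3c, Sema3e, Plxnb3 and Plxnc1 were below it on both MC38 arrays, and no member was below it on both AE17 arrays. The 6 arrays spanned at least 2 log2 units for 12 members, against 11.2% of all tested genes. The plot of levels shows every member on every array.

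**Figure D1:**
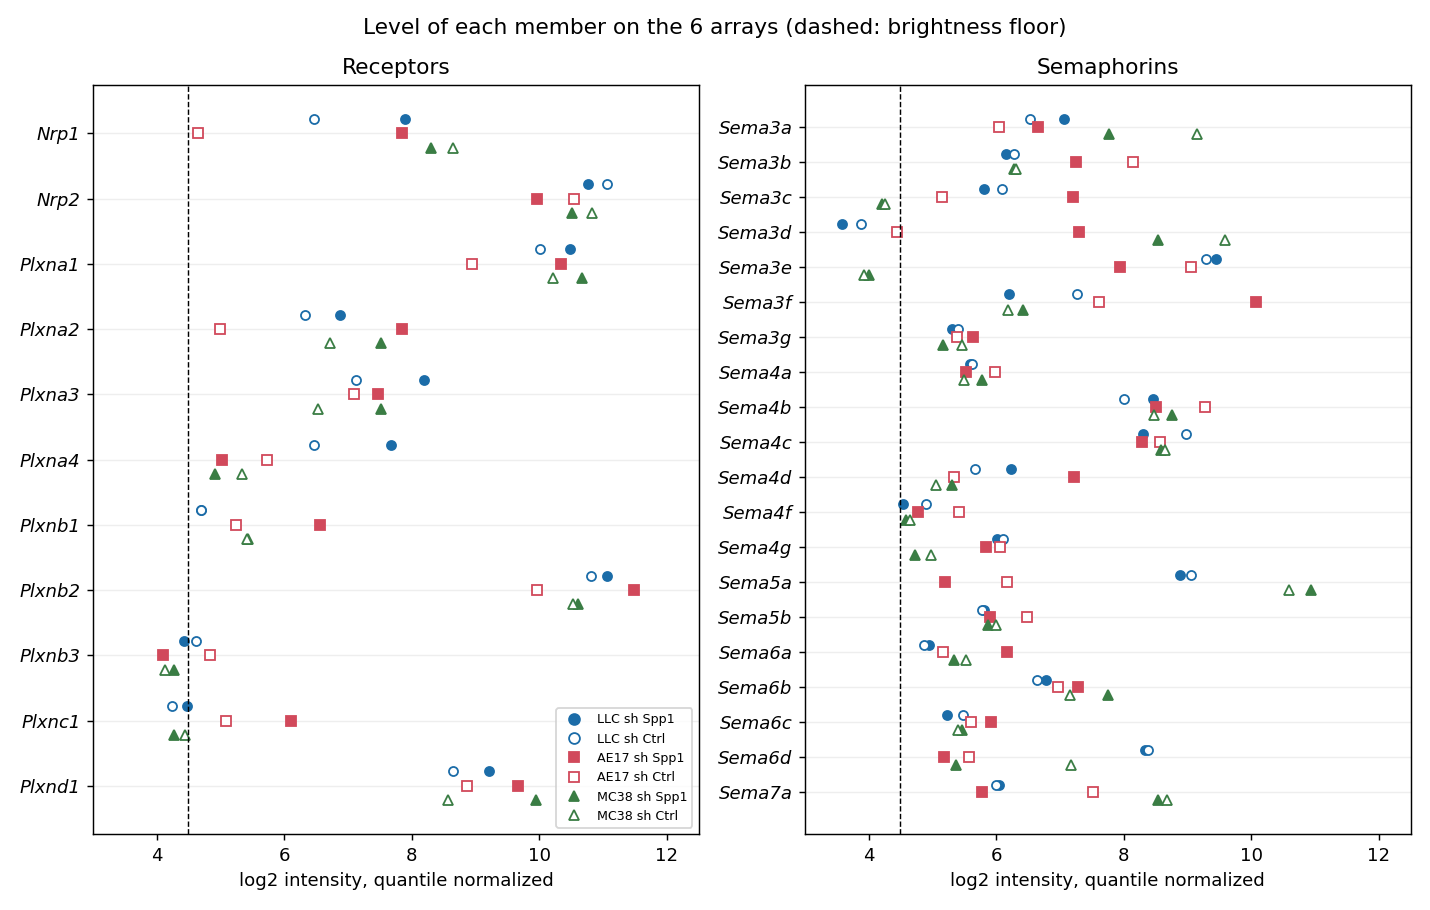
Log2 intensity after quantile normalization (x axis) of the 11 receptors and 20 semaphorins (rows) on the 6 arrays. Colour and shape give the line, filled points sh Spp1 and open points sh Ctrl, and the dashed line the floor of 4.49. Sema3e lies below the floor in MC38, at 4.01 and 3.92, and at 7.94 or above in AE17 and LLC.

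The comparison of sh Spp1 with sh Ctrl asked which guidance genes differ with the hairpin against osteopontin. Plexins made up most of the members that were higher in every line: Plxna1, Plxna2, Plxna3, Plxnb1, Plxnb2 and Plxnd1, with the ligands Sema4d and Sema6b. That is 8 members, against 16.8% of all tested genes, and 6 were lower in every line, against 15.5%: Nrp2, Sema3b, Sema4c, Sema4f, Sema4g and Sema6d. Limma, fitted with the line as a block, called 0 of 30 tested members and 0% of 16797 genes at a Benjamini-Hochberg threshold of 0.05; for members the adjusted p was 0.723 or more. At an unadjusted p under 0.05 there were 4 members, Plxna1, Plxna2, Plxna3 and Plxnd1, against 6.05% of all genes. Without AE17 limma again called 0 members and 0% of genes, with 4 members and 1272 genes at an unadjusted p under 0.05. Those members were Plxna2, Plxna3 and Plxnd1, which were higher, and Sema3d, which was lower; Plxna1 was at 0.0512. For a single gene, 3 pairs allow an exact sign-flip p of 0.25 at the lowest.

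Plxnd1, the receptor that Sema3e binds without a neuropilin, had 9.21, 9.66 and 9.95 on the sh Spp1 arrays of LLC, AE17 and MC38, against 8.65, 8.87 and 8.57 on the sh Ctrl arrays. The 3 sh Spp1 arrays lay above all 3 sh Ctrl arrays, and the mean log2 ratio was 0.91 ± 0.43 (SD, n = 3 lines), or 0.97 without AE17. How many of all tested genes separate the groups in this way was not counted, here or for the plexins below. Limma gave an unadjusted p of 0.0117 and an adjusted p of 0.723.

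Plxna3, a receptor for class 3 semaphorins with neuropilins, had 8.19, 7.46 and 7.52 on the sh Spp1 arrays, against 7.12, 7.09 and 6.53 on the sh Ctrl arrays. Here too every sh Spp1 array was above every sh Ctrl array. The mean log2 ratio was 0.81 ± 0.38 (SD, n = 3 lines) and 1.03 without AE17, with an adjusted p of 0.723 in limma.

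Plxna1, a receptor that also takes part in myeloid cell signalling, had 10.48, 10.34 and 10.67 on the sh Spp1 arrays, against 10.00, 8.94 and 10.21 on the sh Ctrl arrays. The groups did not overlap, and the mean log2 ratio was 0.78 ± 0.54 (SD, n = 3 lines), or 0.47 without AE17, with an adjusted p of 0.723. A dimmer probe set of Plxna1 had ratios of 0.16 in AE17, 0.43 in LLC and 0.65 in MC38, so the AE17 ratio of 1.40 belonged to the brighter probe set.

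Plxna2, a further class A receptor, had 6.87, 7.85 and 7.52 on the sh Spp1 arrays, against 6.32, 4.99 and 6.72 on the sh Ctrl arrays. These groups did not overlap either, and most of the mean log2 ratio of 1.40 ± 1.26 (SD, n = 3 lines) came from AE17: without it the mean was 0.68. The adjusted p was 0.723.

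Plxnb2, a receptor for class 4 semaphorins, was at 11.06, 11.49 and 10.60 on the sh Spp1 arrays, against 10.81, 9.96 and 10.52 on the sh Ctrl arrays. The groups overlapped, and the ratio past 1 log2 unit was that of AE17, at 1.53. Plxnb1, the receptor of Sema4d, was dim, with 4.69, 6.56 and 5.43 against 4.69, 5.25 and 5.41, and a second probe set of it had ratios of -0.24, 0.35 and -0.14 in LLC, AE17 and MC38.

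Relative to the median of all genes, the direction held in the values as deposited for these plexins except Plxnb1. Centring of array medians gives the same relative values and is no second check. The median log2 ratio of all tested genes was 0.03, -0.04 and 0.02 in LLC, AE17 and MC38 after quantile normalization, -0.46, -0.23 and 0.08 in the values as deposited, and 0.33, 0.22 and 0.26 after centring of array medians. Relative to that median, Plxna1, Plxna2, Plxna3, Plxnb2 and Plxnd1 stayed above 0 in every line in the values as deposited, at 1.10, 0.39, 1.20, 0.98 and 1.03 in LLC; before that median is taken off, Plxna2 was at -0.07 there. Plxnb1 already lay at -0.02 in LLC and 0 in MC38 relative to the median after quantile normalization. In the values as deposited it was at -0.37 and -0.23, and the ligand Sema4d turned to -0.02 in MC38.

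The remaining plexins had no common sign. Plxna4, a class A receptor of the nervous system, had 7.67, 5.03 and 4.90 on the sh Spp1 arrays, against 6.47, 5.72 and 5.34 on the sh Ctrl arrays. It was higher in LLC and lower in the other lines, where both groups lay at 5.72 or below. The antisense transcript Plxna4os1 lay between 4.65 and 5.10 on all arrays. Plxnc1, the receptor of Sema7a, had 4.47, 6.10 and 4.26 against 4.23, 5.09 and 4.45, and was above the floor in AE17 alone. Plxnb3, a receptor for Sema5a, was at or below 4.83 on every array.

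The neuropilins went different ways. Nrp1, the co-receptor for Sema3a, had 7.90, 7.84 and 8.30 on the sh Spp1 arrays of LLC, AE17 and MC38, against 6.47, 4.64 and 8.64 on the sh Ctrl arrays. It was 2.70-fold higher in LLC and 9.19-fold higher in AE17, where the sh Ctrl level was just above the floor, with a log2 ratio of -0.34 in MC38, so the groups overlapped. The mean log2 ratio was 1.43 ± 1.77 (SD, n = 3 lines) and 0.55 without AE17, with an adjusted p of 0.723. Relative to the median of all genes, the MC38 ratio of Nrp1 was -0.35 after quantile normalization and -0.10 in the deposited values. Nrp2, the co-receptor for Sema3f, varied little, with 10.76, 9.96 and 10.51 against 11.06, 10.54 and 10.82, and was lower in each line by 0.59 log2 units or less. The deposited values, taken against all genes, put Nrp2 above 0 in LLC and MC38. Among the other members that were lower in every line, they left Sema4c below 0 in LLC (-0.29) and put it above 0 in AE17 (0.06) and MC38 (0.18).

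**Figure D2:**
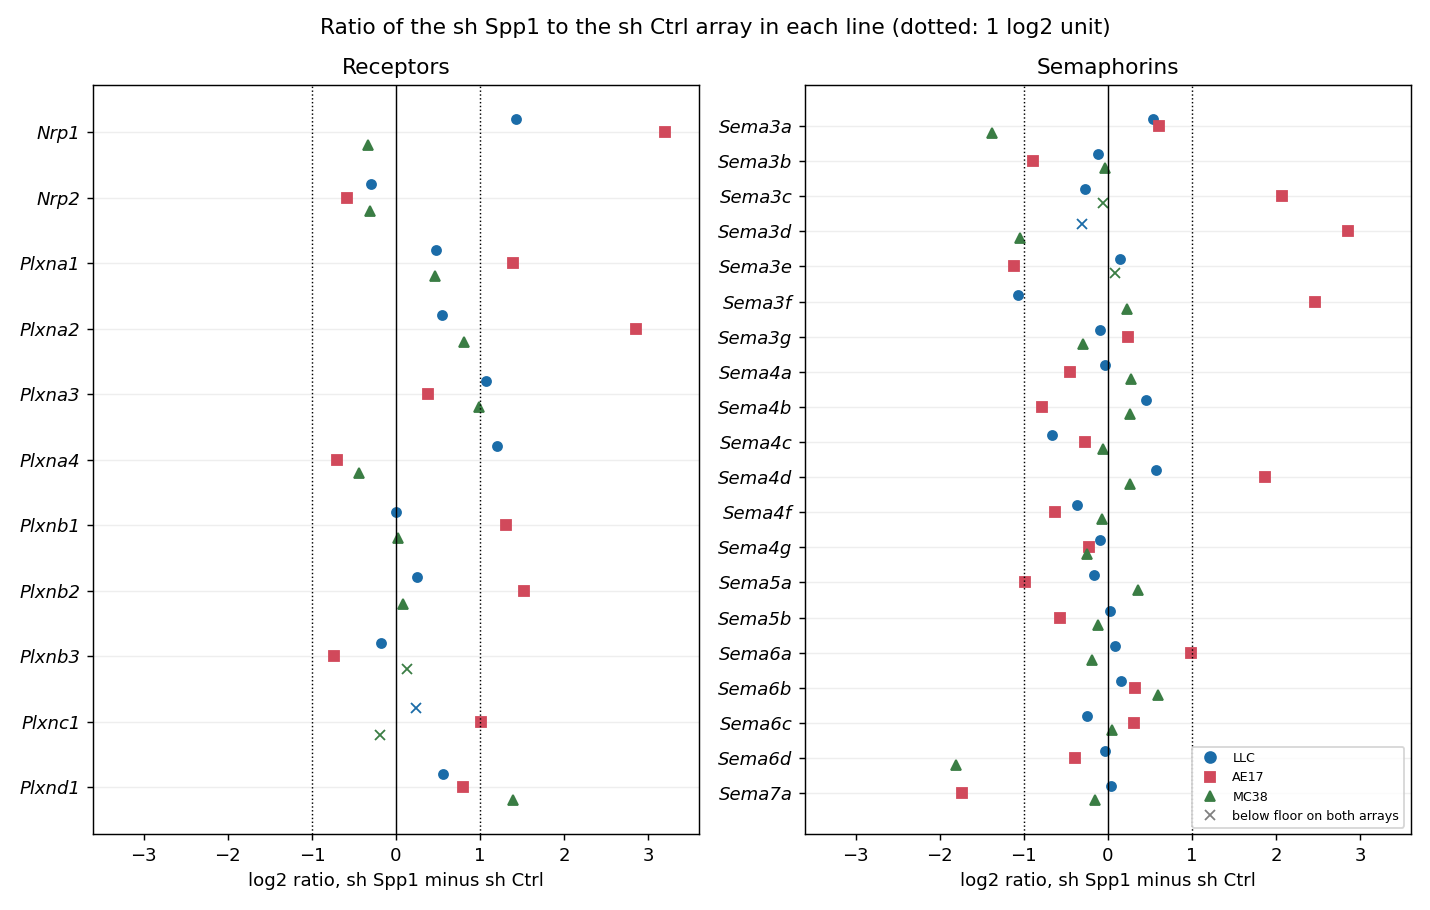
Log2 ratio of the sh Spp1 to the sh Ctrl array (x axis) for the 11 receptors and 20 semaphorins (rows), with 1 point per line and crosses where both arrays of a line are below the floor. Dotted lines mark 1 log2 unit. The AE17 points of Nrp1, Plxna2 and Sema3d lie farthest to the right, at 3.20, 2.85 and 2.85.

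In Plxnd1, as in Plxna1, Plxna2 and Plxna3, every sh Spp1 array lay above every sh Ctrl array. Promoter windows are printed for Nrp1 and Plxna2, the receptors with the highest AE17 ratios, and for Plxnd1. They run from 250 bases before to 50 after the RefSeq transcript start in GRCm38.p6, 5′ to 3′ on the strand of the gene: chr8:128358823-128359122 on the plus strand, chr1:194619579-194619878 on the plus strand and chr6:115994956-115995255 on the minus strand. Capitals mark GGGCGG, the GC box bound by Sp1-type factors, or its complement CCGCCC.
Nrp1: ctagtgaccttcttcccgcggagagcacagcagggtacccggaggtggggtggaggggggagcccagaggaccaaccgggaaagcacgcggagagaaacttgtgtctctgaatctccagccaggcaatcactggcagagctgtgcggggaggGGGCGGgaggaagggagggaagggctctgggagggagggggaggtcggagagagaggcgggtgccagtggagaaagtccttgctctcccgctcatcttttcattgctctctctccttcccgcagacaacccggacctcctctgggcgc
Plxna2: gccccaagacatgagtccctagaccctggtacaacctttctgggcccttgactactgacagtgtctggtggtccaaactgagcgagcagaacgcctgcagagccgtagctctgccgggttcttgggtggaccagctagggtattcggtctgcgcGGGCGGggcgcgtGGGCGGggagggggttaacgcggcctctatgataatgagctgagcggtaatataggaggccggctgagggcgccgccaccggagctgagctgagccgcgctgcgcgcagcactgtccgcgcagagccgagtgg
Plxnd1: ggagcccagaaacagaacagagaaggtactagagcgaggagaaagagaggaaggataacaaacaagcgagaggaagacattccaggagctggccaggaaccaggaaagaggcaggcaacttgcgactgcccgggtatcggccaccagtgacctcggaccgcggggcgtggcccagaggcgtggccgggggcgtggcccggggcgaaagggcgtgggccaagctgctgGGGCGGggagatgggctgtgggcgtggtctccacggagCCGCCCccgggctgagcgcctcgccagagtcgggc
The Nrp1 window holds 1 match and those of Plxna2 and Plxnd1 hold 2 each. RefSeq windows matched 26 of the 31 members, 37 windows in all. A match was present in 9 of 10 receptor windows and 18 of 27 semaphorin windows, against 35.7% of all 32851 windows. The AP-1 motif TGANTCA, read on both strands, was in 3 of the member windows against 7.81% of all, and TATAAA, read on both strands, was in 0 against 13.6%. In the 3 windows printed the GC box was the only one of these motifs found, and a match here is a description of the letters.

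Secreted semaphorins had wide ratios in both directions. Of the 7 class 3 genes, 4 had a ratio past 1 log2 unit in AE17, 2 in MC38 and 1 in LLC, beside 18.6%, 2.51% and 3.45% of all tested genes. No gene of the class was higher in every line, and Sema3b was the one that was lower in every line.

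Sema3f, a neuropilin-2 ligand known for restraining vessel growth, had 6.20, 10.08 and 6.41 on the sh Spp1 arrays of LLC, AE17 and MC38, against 7.27, 7.61 and 6.18 on the sh Ctrl arrays. It was 5.52-fold higher in AE17 and 2.09-fold lower in LLC. Sema3c, a ligand of both neuropilins, had 5.81, 7.21 and 4.20, against 6.08, 5.14 and 4.26, and was 4.20-fold higher in AE17 and below the floor on both MC38 arrays. Neither gene kept 1 direction over the lines, and their adjusted p were 0.821 and 0.752 in limma.

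Sema3d, known from heart and vessel patterning, had 3.58, 7.30 and 8.54 on the sh Spp1 arrays, against 3.88, 4.45 and 9.59 on the sh Ctrl arrays. The AE17 sh Ctrl array was below the floor, so the AE17 ratio is at least 7.01-fold higher against the floor itself, and in MC38 the gene was 2.07-fold lower. Sema3a, a repulsive ligand that acts through neuropilin-1, had 7.07, 6.65 and 7.77, against 6.53, 6.04 and 9.15, and was 2.61-fold lower in MC38. In LLC and AE17 its ratios were 0.54 and 0.61.

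Sema3e, the ligand of plexin-D1, had 9.44, 7.94 and 4.01 on the sh Spp1 arrays, against 9.29, 9.05 and 3.92 on the sh Ctrl arrays. It was 2.16-fold lower in AE17, where its receptor Plxnd1 had a log2 ratio of 0.79. Sema3b, whose human counterpart lies in a region often deleted in lung cancer, had 6.16, 7.26 and 6.28, against 6.27, 8.15 and 6.31. The AE17 arrays were the high ones in both groups. Sema3g, an endothelial ligand, stayed between 5.17 and 5.63 on all arrays.

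Among semaphorins held on the cell surface, 10 of the 13 had no ratio past 1 log2 unit in any line, beside 78.3% of all tested genes. Sema4d, the ligand of plexin-B1, had 6.23, 7.21 and 5.31 on the sh Spp1 arrays, against 5.66, 5.34 and 5.05 on the sh Ctrl arrays, and its mean log2 ratio was 0.90 ± 0.86 (SD, n = 3 lines), or 0.42 without AE17. Limma gave an adjusted p of 0.723. In AE17 both this ligand and Plxnb1 were higher on the sh Spp1 array, by 3.67-fold and 2.48-fold.

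Sema7a, which binds plexin-C1 and beta1 integrins, had 6.04, 5.78 and 8.53 on the sh Spp1 arrays, against 5.996, 7.52 and 8.68 on the sh Ctrl arrays. It was 3.33-fold lower in AE17, where Plxnc1 was 2.01-fold higher, and the 2 LLC arrays differed by 0.04 log2 units. Sema6d, a ligand of plexin-A1, had 8.34, 5.18 and 5.36 against 8.38, 5.57 and 7.17, and was 3.50-fold lower in MC38. Its mean log2 ratio was -0.74 ± 0.94 (SD, n = 3 lines) and -0.92 without AE17, with an adjusted p of 0.723. The deposited values, taken against all genes, put Sema6d at 0.29 in LLC and -1.97 in MC38.

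Sema5a, which carries thrombospondin repeats beside its sema domain, had 8.89, 5.19 and 10.94 on the sh Spp1 arrays, against 9.05, 6.17 and 10.59 on the sh Ctrl arrays. Its largest ratio was -0.98, in AE17, and the lines lay farther apart than the hairpin groups. Sema6a had a ratio of 0.99 in AE17, from a level of 6.16 against 5.17, just inside 1 log2 unit. In 13 members no ratio passed 1 log2 unit and the 6 arrays spanned less than 2 log2 units. These members, Nrp2, Plxnb3, Sema3b, Sema3g, Sema4a, Sema4b, Sema4c, Sema4f, Sema4g, Sema5b, Sema6a, Sema6b and Sema6c, had ratios from -0.67 to 0.46 in LLC, -0.89 to 0.99 in AE17 and -0.31 to 0.60 in MC38.

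Counted line by line, members past 1 log2 unit were more frequent in AE17, as were all genes. In AE17 there were 10 higher and 2 lower among 31 members at or above the floor on an array, against 9.9% higher, 8.71% lower and 18.6% in either direction of 17678 genes. In LLC 3 were higher (Nrp1, Plxna3, Plxna4) and 1 lower (Sema3f) among 29, against 1.75%, 1.81% and 3.56% of 17054 genes. In MC38 1 was higher (Plxnd1) and 3 lower (Sema3a, Sema3d, Sema6d) among 27, against 0.882%, 1.7% and 2.59% of 17014 genes. Among the 30 members tested by their mean over all arrays, a filter that does not favour a direction, the counts past 1 log2 unit were 12 in AE17, 4 in LLC and 4 in MC38, against 18.6%, 3.45% and 2.51% of 16797 genes. With array medians centred, the LLC count was 8, beside 16.9% of all genes, whose median was 0.33 there. Relative to that median it was 6, beside 8.06%. The median log2 ratio of the 31 members was 0.31 in AE17, 0.03 in LLC and -0.03 in MC38, and that of the 11 receptors was 1.01, 0.47 and 0.08, beside -0.03, 0.02 and 0.01 for all named genes. These are counts from 1 array against 1 array, and genes are not replicates.

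**Figure D3:**
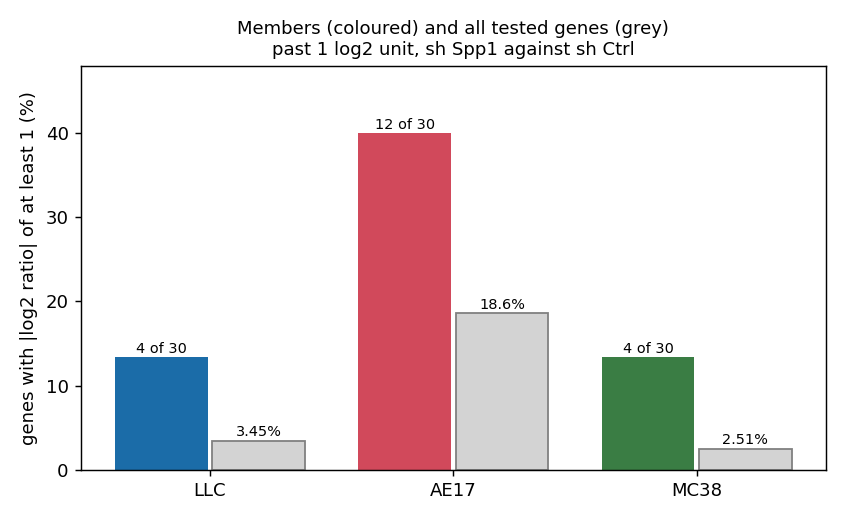
Share of genes with an absolute log2 ratio of at least 1 between the sh Spp1 and the sh Ctrl array (y axis, percent) in each line. Coloured bars are the 30 tested members and grey bars all 16797 tested genes. AE17 has 12 of 30 members and 18.6% of genes past the limit.

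Fibroblast markers differed between the AE17 arrays too. The summed log2 level of the 6 markers, all at or above the floor, was 52.8 on the sh Spp1 array and 43.7 on the sh Ctrl array. The same sums were 39.7 and 42.8 for LLC, and for MC38 they were 45.6 and 50.01. The collagen gene Col1a1 was at 11.96 on the AE17 sh Spp1 array and 6.87 on the sh Ctrl array, Pdgfrb at 10.84 and 7.62, and Col3a1 at 9.76 and 7.47. The list was split: Pdgfra had 8.97 and 10.11, Thy1 5.39 and 5.88, and Col1a2 5.89 and 5.75. The 5 epithelial markers were split too. The keratin Krt8 had 6.47 and 11.08, Krt18 4.67 and 5.01, and Epcam 4.16 and 4.39, below the floor on both arrays. Krt19 had 5.51 and 5.02, and Cdh1 5.88 and 5.73. The 6 leukocyte markers summed to 31.0 and 32.1 in AE17, with Cd68 at 8.71 and 7.31 and Lyz2 at 5.12 and 7.50. The 7 endothelial markers summed to 31.9 and 35.3, with Pecam1 at 5.25 and 6.76. Ptprc, Adgre1, Tek and Emcn were below the floor on both AE17 arrays. The part of any of these in the AE17 ratios of Nrp1, the plexins and the semaphorins was not tested.

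Partners of the pathway were read from a list of 55 genes, of which 52 had a probe set and 48 were tested. No partner passed limma for sh Spp1 against sh Ctrl (0 of 48, with 3 at an unadjusted p under 0.05). Past 1 log2 unit were 11 of the 48 in AE17, 3 in LLC and 1 in MC38, beside the background shares given above. In AE17 the highest were Crmp1, of the collapsin response mediator proteins that act downstream of Sema3a, at 9.68 against 6.27, and the VEGF receptor Flt1, at 8.68 against 5.65. Dpysl3, of the same family as Crmp1, was at 9.52 against 6.75, and Met, a receptor kinase that associates with plexins of the B family, at 12.04 against 9.68. Lower in AE17 were Adam17, a sheddase, with a log2 ratio of -1.50, the plexin-A effector Farp2 with -1.23 and the small G protein Mras with -1.14. In LLC Farp2 and Arhgef11, which plexin-B1 binds, had 1.14 and 1.04, and the kinase Cdk5 had -1.01. In MC38 the integrin subunit Itga1 had -1.12, with a level below the floor on the sh Spp1 array.

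The lines themselves were then compared, with both arrays of a line as its values and the shRNA label in the model. The pair differs in shRNA, so the error of a line difference includes how each line differs with the hairpin. MC38 had Sema3d, Sema3a, Sema5a and Sema7a at the highest levels of the 3 lines and Sema3e and Sema3c at the lowest. LLC had the highest Sema3e, Sema6d and Plxna4, and AE17 the highest Sema3f and Sema3b and the lowest Sema5a. Limma called 0 of 30 members and 0% of genes in each of the 3 contrasts. At an unadjusted p under 0.05 there were 7 members for AE17 minus LLC, 10 for MC38 minus LLC and 11 for MC38 minus AE17, against 12.8%, 11.5% and 13.2% of all genes. Mean differences past 1 log2 unit were found for 8, 10 and 12 of the 30, against 9.19%, 8.42% and 10.1%.

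Sema3e separated MC38 from both other lines. Its mean level was 3.96 in MC38, 8.49 in AE17 and 9.37 in LLC. MC38 minus LLC was -5.41 ± 0.38 (SE), with an adjusted p of 0.0559 in limma. With MC38 set to the floor it was at least 29.3-fold lower there than in LLC. MC38 minus AE17 was -4.53 ± 0.38 (SE), with an adjusted p of 0.069, and at least 16.0-fold lower.

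Sema5a gave the largest difference between MC38 and AE17. Its mean was 10.77 in MC38, 5.68 in AE17 and 8.97 in LLC. MC38 minus AE17 was 5.08 ± 0.37 (SE), a 33.9-fold difference, with an adjusted p of 0.0667 in limma. AE17 minus LLC was -3.29 ± 0.37, with an adjusted p of 0.170.

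Sema3d was at 9.07 in MC38, 5.88 in AE17 and 3.73 in LLC, below the floor on both LLC arrays. MC38 minus LLC was 5.34 ± 0.98 (SE), at least 23.8-fold higher in MC38 against the floor, with an adjusted p of 0.186 in limma. The AE17 mean lay between arrays of 7.30 (sh Spp1) and 4.45 (sh Ctrl), farther apart than AE17 was from LLC. Sema7a was at 8.61 in MC38, 6.65 in AE17 and 6.02 in LLC, and MC38 minus LLC was 2.59 ± 0.49, with an adjusted p of 0.192. The AE17 and LLC arrays of Sema7a overlapped.

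Sema6d was at 5.37 in AE17, 6.26 in MC38 and 8.36 in LLC. AE17 minus LLC was -2.99 ± 0.48 (SE), with an adjusted p of 0.212 in limma, and MC38 minus LLC -2.10 ± 0.48, with 0.244. Both LLC arrays were above the other 4. Sema3f was at 8.85 in AE17 and 6.74 in LLC, and AE17 minus LLC was 2.11 ± 0.85, with an adjusted p of 0.401; most of it came from the AE17 sh Spp1 array. Among receptors the largest line difference was that of Nrp1, with means of 8.47 in MC38 and 6.24 in AE17 and a difference of 2.23 ± 0.84, with an adjusted p of 0.376. Nrp2, Plxnb2 and Plxnd1 differed by less than 1 log2 unit between any pair of lines.

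The line contrasts depended on AE17, whose arrays set much of the fitted spread. Without AE17, limma on the 4 LLC and MC38 arrays called 6 of 30 members, against 6.14% of 16797 genes, from 1 residual degree of freedom and the spread shared over genes. Sema3d (adjusted p of 0.00167), Sema5a (0.0126) and Sema7a (0.00314) were higher in MC38, and Sema3e (0.00115), Sema3c (0.0103) and Sema4g (0.0277) lower. Sema4g, a class 4 ligand, had a mean of 4.85 in MC38 and 6.06 in LLC. Their differences of 5.34, 1.80, 2.59, -5.41, -1.72 and -1.21 log2 units were the same as with AE17 in the fit, because only the error changed. With arrays below the floor set to it, MC38 was at least 2.74-fold lower than LLC for Sema3c, beside the bounds given above for Sema3d and Sema3e.

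**Figure D4:**
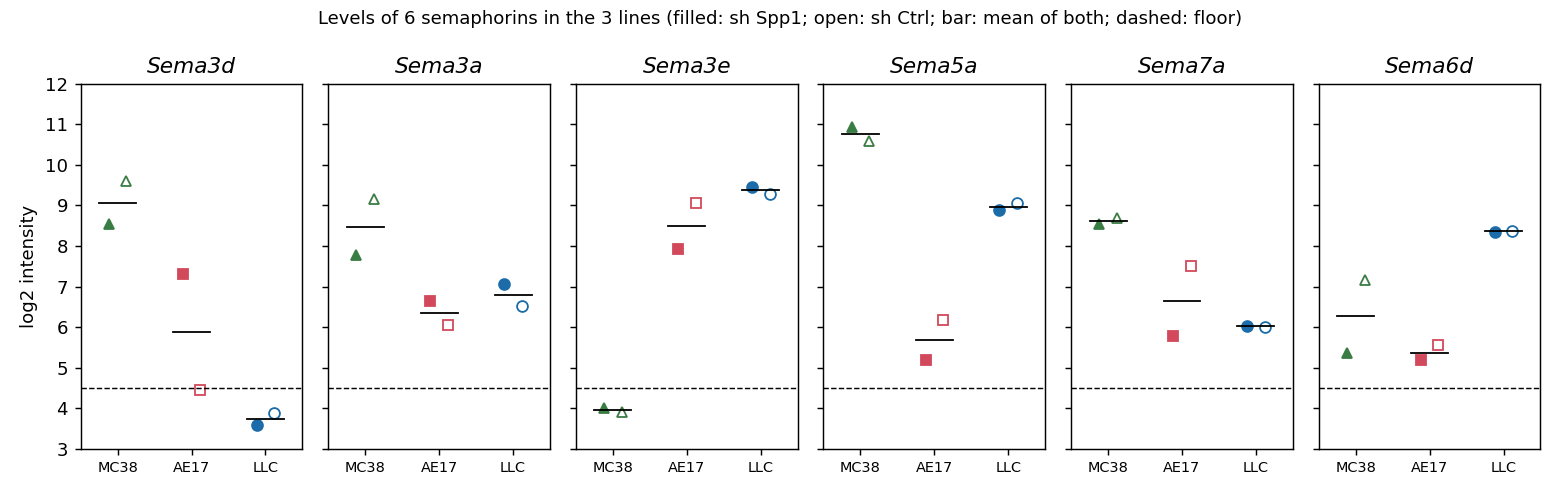
Log2 intensity (y axis) of 6 semaphorins in MC38, AE17 and LLC (x axis). Filled points are sh Spp1 arrays, open points sh Ctrl arrays, bars the mean of both, and the dashed line the floor. Sema3d and Sema3a are highest in MC38, where Sema3e is below the floor.

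Sema3d, Sema3a and Sema3e lie in this order on chromosome 5 of GRCm38.p6, with 0 protein-coding genes between the first pair and 3 between Sema3a and Sema3e. In MC38 the means of Sema3d and Sema3a were the highest of the 3 lines, and that of Sema3e, their neighbour, the lowest. Their promoter windows are shown because these neighbours differ in opposite directions between the lines. All are on the plus strand, at chr5:12382916-12383215, chr5:13396534-13396833 and chr5:14025026-14025325, with the GC box and its complement in capitals.
Sema3d: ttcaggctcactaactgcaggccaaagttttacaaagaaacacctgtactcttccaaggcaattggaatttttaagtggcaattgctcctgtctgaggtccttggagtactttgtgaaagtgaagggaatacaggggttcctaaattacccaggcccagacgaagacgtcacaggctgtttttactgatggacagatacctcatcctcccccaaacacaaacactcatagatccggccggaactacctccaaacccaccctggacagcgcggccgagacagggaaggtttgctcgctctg
Sema3a: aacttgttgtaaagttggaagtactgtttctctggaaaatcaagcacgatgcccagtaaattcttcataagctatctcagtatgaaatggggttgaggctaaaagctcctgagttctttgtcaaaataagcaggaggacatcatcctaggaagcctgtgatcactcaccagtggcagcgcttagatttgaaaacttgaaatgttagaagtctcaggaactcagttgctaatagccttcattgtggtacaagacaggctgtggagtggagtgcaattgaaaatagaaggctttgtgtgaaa
Sema3e: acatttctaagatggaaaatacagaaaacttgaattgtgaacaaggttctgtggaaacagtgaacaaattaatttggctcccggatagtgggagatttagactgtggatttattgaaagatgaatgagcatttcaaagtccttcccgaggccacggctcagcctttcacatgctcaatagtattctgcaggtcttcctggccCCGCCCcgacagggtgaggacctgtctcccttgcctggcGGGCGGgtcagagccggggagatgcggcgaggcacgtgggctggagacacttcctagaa
The Sema3e window holds 2 matches to the GC box and those of Sema3d and Sema3a hold 0. Their base composition differs too, with 50.7% G and C in Sema3e, 49.7% in Sema3d and 41.3% in Sema3a, against a median of 52.7% over all windows. The windows hold 0 matches to TATAAA or TGANTCA.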

How the data were processed

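RNA of 6 samples was measured on 1-colour arrays. The deposited table holds linear intensities of 41345 probe sets. RMA is named in the submitters' processing notes, and GeneSpring GX 12.5 in the series' design text; a genome build is not given in the sources used here. Array medians of the deposited values differed, so intensities were log2 transformed and quantile normalized with limma 3.58.1 in R 4.3.3. The platform annotation gave 1 gene symbol to 23521 probe sets, for 22180 genes, and the brightest stood for its gene. The 31 members have 33 probe sets, and all matched RefSeq (GRCm38.p6) by Entrez ID. The 16797 genes whose mean reached the floor, percentile 30 of all probe sets, were fitted with lmFit and eBayes on line and shRNA label, with Benjamini-Hochberg adjustment at 0.05. The fit was tested on simulated data in which a changed gene moved alike in all lines. Responses that differ between lines were not simulated. The line pairs the arrays, since both of a pair are the same cell line. No label says how many cultures an array holds, so p-values measure the spread between these samples. Array-by-array values are given for members past 1 log2 unit in a line, passing a contrast, or spanning 2 log2 units; partners past 1 log2 unit are named, at most 4 per direction and line. Members and lists were chosen with earlier results of these data known. Alternatives covered scaling, floor, probe sets, block, shRNA term, variance prior and left-out arrays. Plots used matplotlib 3.10.9 (Python 3.11.15).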

Additional observations from a re-analysis of the deposited data

Results flagged for a closer look

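Sema3d and Sema3f had ratios past 1 log2 unit in opposite directions in 2 lines. For Sema3d the log2 ratio of sh Spp1 to sh Ctrl was 2.85 in AE17 and -1.05 in MC38; the AE17 sh Ctrl array was below the floor, and with it set to the floor the AE17 value is at least 2.81. For Sema3f it was 2.46 in AE17 and -1.06 in LLC. Each value is 1 array against 1 array, so the difference between lines was not tested.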

How the results depend on the processing

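No member passed the sh Spp1 against sh Ctrl comparison under any setting tried, and dropping the cell line as a block, so that the pairing was ignored, again gave 0 members and 0 genes called. The line contrasts depended more on the settings. In the values as deposited 2 members passed for AE17 minus LLC, 3 for MC38 minus LLC and 4 for MC38 minus AE17, with 103, 225 and 287 genes. Centring of array medians gave 8 members past 1 log2 unit in LLC, beside 16.9% of all genes, whose median moved to 0.33; relative to that median it gave 6, beside 8.06%. For MC38 minus LLC 1 member passed with no floor (44 genes), with a floor at percentile 50 (42 genes), without the shRNA term (89 genes) and with a trended, robust variance prior (50 genes). For MC38 minus AE17 2 members passed with that higher floor (27 genes) and 2 without the shRNA term (100 genes), and the trended prior called 1 gene. For AE17 minus LLC those last 2 settings called 9 genes and 1 gene, and no member. Leaving out 1 array at a time gave 0 to 9 members for AE17 minus LLC, 0 to 6 for MC38 minus LLC and 0 to 7 for MC38 minus AE17, with 0 to 1443, 0 to 1032 and 0 to 1157 genes. The upper ends came from leaving out the AE17 sh Ctrl array; without the AE17 sh Spp1 array the counts were 2, 6 and 7 members and 511, 1032 and 1092 genes. Of the single-gene tests recomputed, 377 kept direction and side of the threshold, 45 passed it newly and 2 changed direction. These were Plxnb1 for sh Spp1 over sh Ctrl, at -0.0027 in the values as deposited, and Nrp1 for MC38 minus LLC, which ran from -0.036 without the MC38 sh Ctrl array to 2.61 without the MC38 sh Spp1 array. Apart from the AE17 arrays, whose spread enters the fit, the cause was not tested. Signal over background limits Sema3c, Sema3d, Sema3e, Plxnb3 and Plxnc1, each below the floor on at least 1 array.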
